A study of Mus musculus with 4 samples.

Results

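The genes described are 9 interferon-induced antiviral genes of the mouse, Ifit1, Ifit2, Ifit3, Oas1a, Oas1g, Oas2, Oas3, Oasl1 and Oasl2. They were chosen by symbol, and all 9 were found among the 17013 genes in the deposited values. RNA came from macrophages of wild-type male C57BL/6 mice, whose age is not given in the sources used here. The cells were grown from bone marrow with M-CSF, seeded on porous inserts and left overnight. They were harvested 24 h after the media described next were added. The Con cells (fat control medium) received the middle layer, and the Fat cells (high-fat-containing medium) the top layer, of freeze-thawed mouse abdominal fat. Artificial necrotic bone fluid (aNBF), a freeze-thaw extract of mouse bone, was present in both media, so Con is itself a culture with necrotic material and no culture without it was analysed here. There were 2 libraries from Con and 2 from Fat, and neither the labels nor the methods say whether replicates came from separate mice or cultures, so the p-values below measure only the spread between these libraries, which may be technical. The question was how the levels of these antiviral genes differed between the 2 media. Uptake of fat was not measured in these libraries.

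Both families belong to the response that cells mount to type I interferon. Interferon binds its receptor, the kinases Jak1 and Tyk2 are activated, and transcription factors, Stat2 and Irf9 among them, bind a short promoter sequence called the interferon-stimulated response element. Ifit proteins bind foreign RNA, and Ifit1 in particular holds RNA whose cap lacks a methyl group that host messenger RNA carries. Oas enzymes are switched on by double-stranded RNA and make 2′-5′-linked oligoadenylate as a signal that RNA is to be broken down. The Oasl proteins carry ubiquitin-like domains, and mouse Oasl1 is known to hold down the translation of the transcription factor Irf7. In macrophages these genes are classic read-outs of interferon exposure.

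The Ifit genes lie together on chromosome 19 and the Oas and Oasl genes on chromosome 5. RefSeq start windows (250 bases before to 50 bases after the start, build GRCm38.p6) were at hand for 8 of the 9 genes. The core of the response element was searched as GAAA, any 2 bases and GAAA again, on either strand (TTTC, any 2 bases and TTTC when read from the other strand), and matches may overlap each other. It was found in the windows of 5 of the 8 genes, against 3.44% of all 32851 windows. No match was found in the windows of Ifit2 (both of its starts), Oasl1 and Oasl2, which says only that these letters are not in those windows. The 170 bases before the start are shown for the 5 genes with a match, because they show which genes carry the core and where. The capitals mark the matches.
Ifit1 (chr19:34640719-34640888, plus strand): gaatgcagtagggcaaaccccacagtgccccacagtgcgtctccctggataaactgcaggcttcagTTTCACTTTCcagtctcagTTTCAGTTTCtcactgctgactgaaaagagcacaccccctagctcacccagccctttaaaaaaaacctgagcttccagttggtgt
Ifit3 (chr19:34583359-34583528, plus strand): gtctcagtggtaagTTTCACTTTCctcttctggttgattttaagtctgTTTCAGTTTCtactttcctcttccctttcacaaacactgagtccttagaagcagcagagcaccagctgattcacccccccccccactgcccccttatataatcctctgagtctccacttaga
Oas1a (chr5:120907526-120907695, minus strand): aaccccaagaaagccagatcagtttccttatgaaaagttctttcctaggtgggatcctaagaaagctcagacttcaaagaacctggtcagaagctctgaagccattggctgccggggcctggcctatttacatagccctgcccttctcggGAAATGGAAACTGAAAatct
Oas1g (chr5:120887614-120887783, minus strand): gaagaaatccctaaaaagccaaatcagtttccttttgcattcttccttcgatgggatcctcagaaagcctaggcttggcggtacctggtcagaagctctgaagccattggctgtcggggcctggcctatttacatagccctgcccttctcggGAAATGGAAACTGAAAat
Oas3 (chr5:120777660-120777829, minus strand): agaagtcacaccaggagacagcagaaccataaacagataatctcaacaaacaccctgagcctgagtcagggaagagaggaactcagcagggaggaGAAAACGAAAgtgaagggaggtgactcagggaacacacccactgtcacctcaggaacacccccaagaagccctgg

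Ifit1 and Ifit3 held the same pair of matches in the same order, TTTCACTTTC and then TTTCAGTTTC, on the strand opposite to the gene. Oas1a and Oas1g each held 2 overlapping matches that form one run, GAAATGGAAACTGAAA, ending 5 bases before the start in Oas1a and 3 bases before it in Oas1g. The printed stretches of these 2 genes have a run of 56 identical bases in common, which contains the matches. Oas3 held 1 match, between 75 and 66 bases before its start. A match is a description of the letters and not evidence that a factor was bound in these cells.

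**Figure D1:**
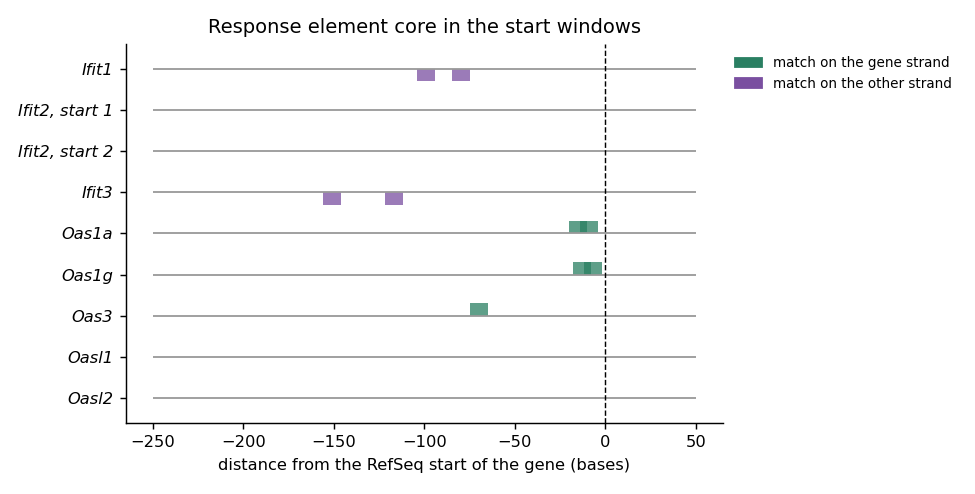
Places of the response element core in the RefSeq start windows of 8 of the 9 genes, with the distance from the start in bases on the horizontal axis. Blocks above a line match on the gene's strand and blocks below it on the other strand. The Oas1a and Oas1g matches lie next to the start, those of Ifit1, Ifit3 and Oas3 lie further away, and 4 windows of Ifit2, Oasl1 and Oasl2 are empty.

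Values are given as CPM, the reads of a gene scaled by the authors to the size of its library times a further factor for each library. The recovered depth was between 33573852 and 40785872 reads per library, 1 read corresponded to between 0.0244 and 0.0295 CPM, and each of the 9 genes had at least 232 reads in every library, so counting error was small beside the spread between replicates. A gene was called at an adjusted p-value under 0.05 in limma's test on log2(CPM + 0.1) across 12470 genes. All 9 genes passed the filter of at least 0.5 CPM in 2 or more libraries.

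All 3 Ifit genes were called lower in Fat. For Ifit2, whose protein binds RNA and promotes cell death when overproduced, the Con libraries held 248 and 155 CPM and the Fat libraries 45.1 and 21.8 CPM, with replicate 1 given first here and below. Both Fat libraries lay far below both Con libraries, although the replicates of each medium were themselves well apart. The mean was 201 ± 65.4 CPM (SD, n = 2) in Con and 33.4 ± 16.5 CPM (SD, n = 2) in Fat, 6.02-fold lower in Fat, with a log2 fold change of -2.64 (SE 0.33, adjusted p = 0.00553 by limma). By log2 fold change Ifit2 was the second lowest of the 12470 genes tested. In bulk RNA, fewer cells that express a gene and less of its RNA per cell cannot be told apart, here or below.

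Ifit3 was at 57.1 and 33.9 CPM in Con and at 12.4 and 6.46 CPM in Fat. The lower Con library was 2.73-fold above the higher Fat library. The log2 fold change was -2.28 (SE 0.32, adjusted p = 0.00787 by limma). Ifit1, which recognises the undermethylated cap, was at 49.1 and 29.4 CPM in Con and at 10.8 and 5.66 CPM in Fat. Its groups were separated by the same 2.73-fold step, and its log2 fold change was -2.27 (SE 0.31, adjusted p = 0.00771 by limma). Ifit1 and Ifit3 kept to the same proportion in every library: the ratio of Ifit1 to Ifit3 in TPM, which is scaled for gene length, was 0.651 and 0.657 in Con and 0.658 and 0.663 in Fat. The TPM ratio of Ifit2 to Ifit3 was 2.19 and 2.31 in Con and 1.84 and 1.71 in Fat, so Ifit2 was lower in relation to Ifit3 in both Fat libraries. This difference was not tested.

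Of the enzymes that make the 2′-5′ oligoadenylate, Oas3, the large enzyme that responds best to long double-stranded RNA, had the lowest fold change. It was at 131 and 101 CPM in Con and at 63.9 and 33.9 CPM in Fat, so that the groups did not overlap. The log2 fold change was -1.31 (SE 0.26, adjusted p = 0.0246 by limma), and with DESeq2 on the recovered reads Oas3 was not called (adjusted p = 0.0852). Oas2, the medium-sized enzyme, was at 62.01 and 35.5 CPM in Con and at 41.4 and 21.5 CPM in Fat. It was the only one of the 9 genes whose groups overlapped, since Fat replicate 1 lay above Con replicate 2. Its log2 fold change of -0.65 (SE 0.33, adjusted p = 0.279 by limma) did not pass the test.

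Oas1a and Oas1g belong to the mouse Oas1 cluster of small enzymes. Oas1a was at 65.3 and 52.8 CPM in Con and at 48.5 and 32.1 CPM in Fat. The groups did not overlap, but Con replicate 2 was only 1.09-fold above Fat replicate 1, and the log2 fold change of -0.57 (SE 0.18, adjusted p = 0.104 by limma) was not called. Oas1g was at 21.0 and 16.8 CPM in Con and at 12.9 and 8.66 CPM in Fat, a log2 fold change of -0.83 (SE 0.19, adjusted p = 0.0366 by limma). These 2 genes are near copies. Of the stretches of 75 bases in the Oas1a transcript, 78.8% were found in other genes with up to 2 mismatches, and 73.8% for Oas1g, in each case in the partner gene. How the authors' counting split such reads is not given in the sources used here, so the separate values of Oas1a and Oas1g are uncertain. Summed, the pair was at 86.2 and 69.6 CPM in Con and at 61.3 and 40.7 CPM in Fat, a log2 difference of -0.63.

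The Oasl genes were both called lower. Oasl2, which kept enzyme activity beside its ubiquitin-like domains, was at 209 and 156 CPM in Con and at 120.3 and 68.1 CPM in Fat. The groups did not overlap, and the log2 fold change was -0.99 (SE 0.24, adjusted p = 0.0481 by limma). This call lay at the threshold: with edgeR's quasi-likelihood test on the recovered reads the adjusted p-value was 0.0519, and with DESeq2 it was 0.222. Oasl1 was at 23.0 and 18.4 CPM in Con and at 13.9 and 9.17 CPM in Fat, a log2 fold change of -0.86 (SE 0.19, adjusted p = 0.0346 by limma).

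**Figure D2:**
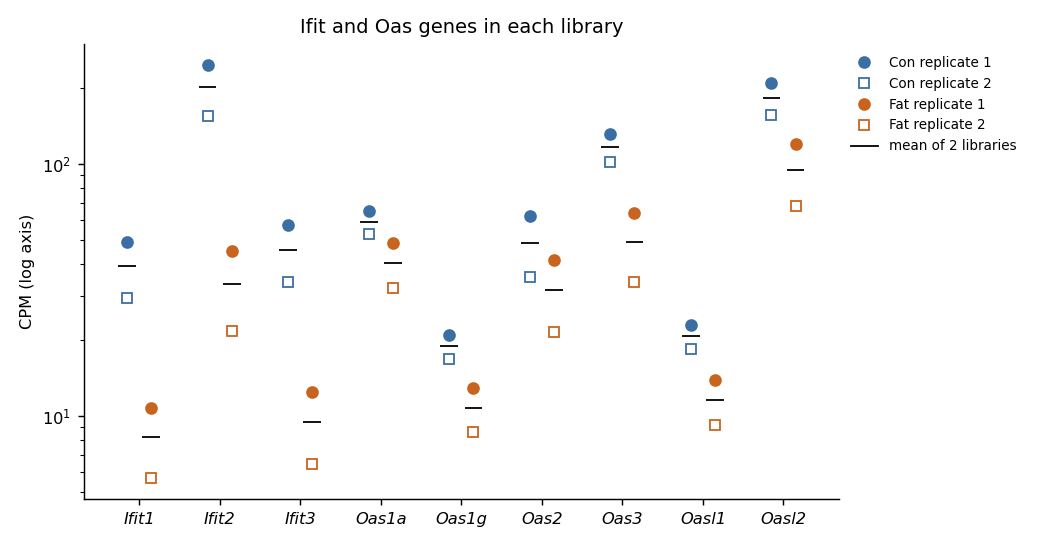
CPM of the 9 genes in each library on a log axis, with Con in blue, Fat in orange, filled circles for replicate 1, open squares for replicate 2 and bars for the mean of the 2 libraries. The Fat points of Ifit1, Ifit2 and Ifit3 lie furthest below their Con points, Oas2 alone has overlapping groups, and replicate 1 is above replicate 2 in both media for every gene.

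In all, 7 of the 9 genes were called lower in Fat, beside 5.0% of the 12470 genes tested. With limma 0 of the 9 were called higher, beside 3.99% of all tested genes, and 0 at an unadjusted p-value under 0.05, beside 11.8%. On the recovered reads, edgeR's quasi-likelihood test called 6 of the 9 lower, its exact test 8 and DESeq2 5, beside 5.20%, 7.44% and 4.81% of all genes. Each of these 3 tests called 0 of the 9 higher, beside 3.93%, 5.71% and 3.69%. At an unadjusted limma p-value under 0.05, 8 were lower, beside 12.4%. Their median log2 fold change was -0.99, and that of all tested genes was 0.01. Both Fat libraries lay below both Con libraries for 8 of the 9 genes, beside 26.2% of the tested genes. With 2 libraries a side, the smallest p-value that an exact permutation test can reach for 1 gene is 0.333. The fold changes fell into separate ranges by family, between -2.64 and -2.27 for the 3 Ifit genes and between -1.31 and -0.57 for the 6 Oas and Oasl genes. Without Con replicate 1 or without Fat replicate 2, 4 genes were called, Ifit1, Ifit2, Ifit3 and Oas3, beside 2.68% and 2.51% of all genes. Without Con replicate 2 or without Fat replicate 1, all 9 were called, beside 4.91% and 4.68%. Without limma's mean-variance trend 0 of the 9 genes were called, beside 0.0962% of all genes, and the adjusted p-values of the Ifit genes were then between 0.0922 and 0.1. With the TPM values the 3 Ifit genes were called, beside 2.94%.

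**Figure D3:**
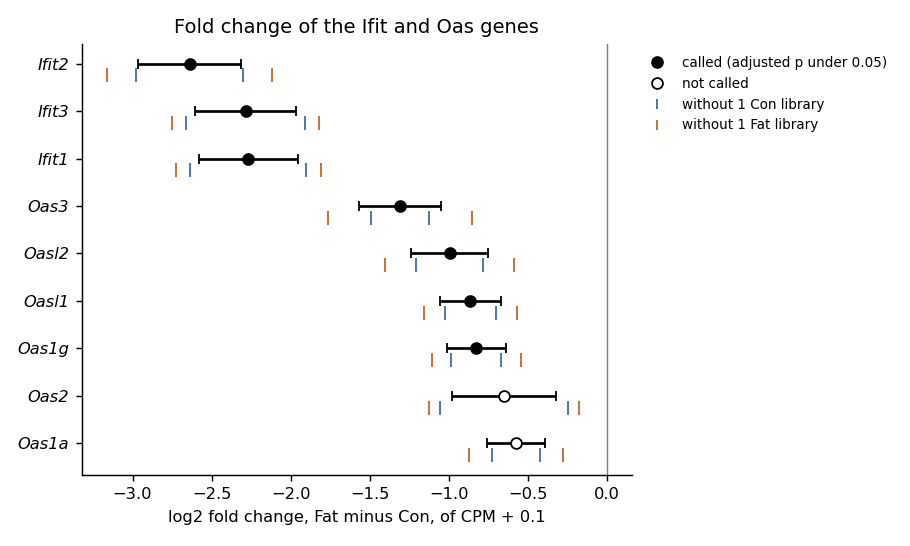
Log2 fold change of each gene (Fat minus Con, of CPM + 0.1), with bars for the limma standard error, filled points for genes called and open points for Oas1a and Oas2, which were not. Ticks give the value without 1 Con library (blue) or 1 Fat library (orange). Every tick lies below 0, and those of Oas2 reach from -1.12 to -0.18.

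The replicates of the Fat medium were far apart for these genes. Fat replicate 1 was above Fat replicate 2 for all 9, by between 1.49-fold (Oas1g) and 2.07-fold (Ifit2). Con replicate 1 was likewise above Con replicate 2 for all 9, by between 1.24-fold (Oas1a) and 1.75-fold (Oas2). Replicate 1 was the higher in both media for 27.9% of the tested genes. On the log2 scale the gap between the Fat replicates was 1.04 for Ifit2, 0.93 for Ifit3, 0.92 for Ifit1, 0.94 for Oas2, 0.91 for Oas3 and 0.82 for Oasl2. For Oas1a, Oasl1 and Oas1g it was 0.59, 0.59 and 0.57. The median gap of all tested genes, taken without its sign, was 0.09 in Fat and 0.10 in Con. A wider Fat gap than that of Ifit2 was found in 0.561% of the tested genes, and a wider one than that of Oas1g, the narrowest of the 9, in 3.62%. The step from Con to Fat was wider than the Fat gap for the Ifit genes, Oas3, Oas1g, Oasl1 and Oasl2. For Oasl2 the log2 fold change was -0.99, against a gap of 0.82. For Oas1a and Oas2 the log2 gap in Fat was as wide as the log2 fold change or wider (0.59 and 0.94, against fold changes of -0.57 and -0.65).

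Which libraries were compared therefore set the size of the difference. Between the libraries numbered 1, Ifit2 was 5.49-fold lower in Fat, and between those numbered 2 it was 7.11-fold lower. The closest libraries, Con replicate 2 and Fat replicate 1, differed 3.44-fold, and the most distant, Con replicate 1 and Fat replicate 2, 11.4-fold. For Oas3 these 4 values were 2.05-fold, 3.0-fold, 1.59-fold and 3.87-fold. For Oas2 the Fat library was 1.5-fold and 1.65-fold lower within the same numbers, while Con replicate 2 was at 0.855 times Fat replicate 1. No batch is named in the labels or the methods, so no value within a batch can be given.

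**Figure D4:**
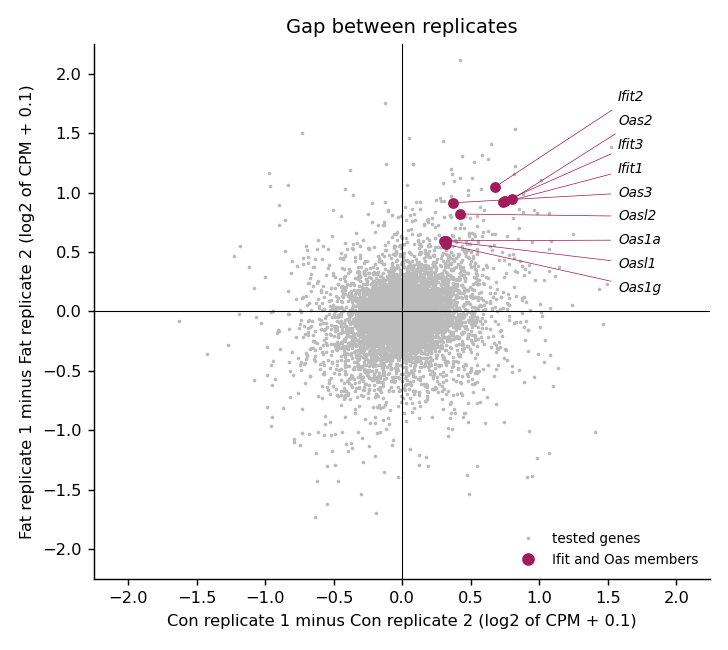
Difference between replicates 1 and 2 in Con (horizontal axis) and in Fat (vertical axis), in log2 of CPM + 0.1, for the tested genes in grey and the 9 genes in purple, with 3 genes outside the axes. All 9 lie to the upper right of the origin, with Fat gaps between 0.57 and 1.04.

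Levels can be compared between genes only per length, for which the TPM values serve. In Con, Oasl2 (126 ± 27.7 TPM, SD, n = 2) and Ifit2 (111 ± 37.4 TPM) were the most abundant, and their replicates overlapped. Oas1a followed at 67.8 ± 11.03 TPM, below both libraries of Ifit2. Oas3 (53.4 ± 10.3 TPM), Ifit3 (49.5 ± 18.5 TPM), Ifit1 (32.3 ± 11.9 TPM), Oas2 (27.4 ± 10.9 TPM), Oasl1 (21.2 ± 3.62 TPM) and Oas1g (20.6 ± 3.47 TPM) came next, and from Oas1a down each gene's replicates overlapped those of its neighbour in this order. In Fat, Oasl2 (66.6 ± 26.1 TPM) was still in front, with Oas1a (47.3 ± 13.6 TPM) behind it and their replicates overlapping. Both Oas1a libraries lay above Oas3 (22.9 ± 9.98 TPM), Ifit2 (18.8 ± 9.25 TPM) and Oas2 (18.0 ± 8.10 TPM), which overlapped each other. Oasl1 and Oas1g stood at 12.02 ± 3.48 and 11.96 ± 3.31 TPM, and Ifit3 (10.5 ± 4.66 TPM) and Ifit1 (6.90 ± 3.04 TPM) had the lowest means. The replicates of Ifit3 overlapped those of Oasl1, Oas1g and Ifit1. Both Ifit1 libraries lay below both libraries of Oasl1 and Oas1g. The summed TPM of the 3 Ifit genes was 0.661 and 0.537 times that of the 6 Oas and Oasl genes in Con, and 0.214 and 0.181 times in Fat. The 2 media did not overlap in this ratio, for which no test was made.

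Of 9 further Ifit and Oas genes, 6 were listed and 4 were tested. Of these 4, limma called 2 lower and 0 higher, beside 5.0% and 3.99% of all tested genes. With limma at an unadjusted p-value under 0.05, 3 were lower and 0 higher, beside 12.4% and 11.8%. With edgeR and DESeq2, 0 were higher, beside 3.69% to 5.71%. Ifit1bl1 (listed as Gm14446) was at 6.84 and 3.84 CPM in Con and at 1.04 and 0.415 CPM in Fat, a log2 fold change of -2.77 (limma adjusted p = 0.00929). Ifit3b (listed as I830012O16Rik) was at 4.54 and 3.23 CPM in Con and at 0.991 and 0.439 CPM in Fat, a log2 fold change of -2.36 (limma adjusted p = 0.00927). Ifit3b is a near copy of Ifit3, with which 63.2% of its stretches of 75 bases were shared, as were 72.8% of those of Ifit3, so their split is uncertain. The fold changes of these low genes depended on the pseudocount: with 1 CPM in place of 0.1 CPM they were -1.86 for Ifit1bl1 and -1.52 for Ifit3b, and both were still called. Ifit3 and Ifit3b summed were at 61.7 and 37.1 CPM in Con and at 13.4 and 6.90 CPM in Fat, and their log2 difference was -2.30.

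The other relatives were at low levels. Ifit1bl2 (listed as 2010002M12Rik), whose start lies head to head with that of Ifit1 and 1 of whose 2 windows holds the same 2 matches of the core, had 21 and 13 reads in Con and 7 and 7 in Fat, and was under the filter. Oas1b, at 4.84 and 2.96 CPM in Con and 2.52 and 2.195 CPM in Fat, was not called (log2 fold change -0.66, limma adjusted p = 0.135). Oas1c, at 5.99 and 4.98 CPM in Con and 4.47 and 4.71 CPM in Fat, was not called either (log2 fold change -0.25, limma adjusted p = 0.325). Oas1f had 2 and 1 reads in Con and 0 in Fat, which is at or under the limit of 3 reads used here for detection, a limit that covers counting error only. Oas1d, Oas1e and Oas1h were not listed.

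The 10 partners are genes whose proteins act with the Oas and Ifit proteins or on the cap of RNA. Of them 0 were called higher, beside 3.99% of all tested genes. At an unadjusted limma p-value under 0.05 also 0 were higher, beside 11.8%. With edgeR and DESeq2, 0 were higher, beside 3.69% to 5.71%. The list's median log2 fold change was 0.03. Cmtr1, which adds the cap methyl group that shields host RNA from Ifit1, was at 89.1 and 83.0 CPM in Con and at 83.2 and 75.2 CPM in Fat (log2 fold change -0.12, limma adjusted p = 0.347).

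Of 8 genes that sense or edit double-stranded RNA, 3 were called lower and 0 higher, beside 5.0% and 3.99% of all tested genes. The list's median was -0.52. With limma at an unadjusted p-value under 0.05, 7 were lower and 0 higher, beside 12.4% and 11.8%. With edgeR and DESeq2, 0 were higher, beside 3.69% to 5.71%. Zbp1, a sensor of left-handed RNA helices, was at 81.2 and 63.3 CPM in Con and at 32.5 and 16.5 CPM in Fat (log2 fold change -1.63, limma adjusted p = 0.0151). Dhx58 (log2 fold change -0.79, limma adjusted p = 0.0473) and Ifih1 (log2 fold change -0.67, limma adjusted p = 0.0298), which bind long double-stranded RNA, were the others. DESeq2 called neither of these (adjusted p = 0.165 and 0.0769), and Dhx58 was not called without the filter (limma adjusted p = 0.0614) or among genes averaging 5 CPM or more (limma adjusted p = 0.0591). With DESeq2 the 3 genes called lower were Zbp1, Eif2ak2 and Adar. Without Con replicate 1 or without Fat replicate 2, 1 of the 8 was called.

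Of 12 genes of interferon signalling, 4 were called lower and 0 higher, beside 5.0% and 3.99% of all tested genes. The list's median was -0.38. At an unadjusted limma p-value under 0.05, 7 were lower and 0 higher, beside 12.4% and 11.8%. With edgeR and DESeq2, 0 were higher, beside 3.69% to 5.71%. Irf1, a transcription factor induced by interferon, had a log2 fold change of -0.86 (limma adjusted p = 0.00447). The feedback inhibitors Usp18 (log2 fold change -1.71, limma adjusted p = 0.0237) and Socs1 (log2 fold change -1.02, limma adjusted p = 0.0170) were lower as well. DESeq2 did not call Usp18 (adjusted p = 0.0619), and Socs1 was not called without Con replicate 1 (limma adjusted p = 0.0635). Irf7, whose translation Oasl1 represses, was at 112 and 72.7 CPM in Con and at 60.0 and 24.6 CPM in Fat. Its groups did not overlap, but with the replicates of each medium far apart the log2 fold change of -1.23 (SE 0.37, adjusted p = 0.0918 by limma) was not called. The receptor genes Ifnar1 and Ifnar2 were not called (log2 fold changes -0.04 and -0.07, limma adjusted p = 0.682 and 0.462).

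Little RNA of the interferons themselves was found. Of 9 genes of ligands, Ifna1, Ifna2, Ifna4, Ifna5, Ifnl2 and Ifnl3 were not listed, and Ifnb1 had 1 and 1 reads in Con and 0 in Fat, which gives no fold. Ifng, the gene of type II interferon, had 13 and 17 reads in Con and 4 and 4 in Fat and was under the filter. Il27, the gene of a cytokine chain that is not an interferon, was the only one tested and was called lower (log2 fold change -0.86, limma adjusted p = 0.0170), but not without Con replicate 1 (limma adjusted p = 0.0712).

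Of 13 other interferon-induced effector genes, 10 were called lower and 0 higher, beside 5.0% and 3.99% of all tested genes. The list's median log2 fold change was -1.30. At an unadjusted limma p-value under 0.05 all 13 were lower and 0 higher, beside 12.4% and 11.8%. With edgeR and DESeq2, 0 were higher, beside 3.69% to 5.71%. The lowest fold changes were those of Ifi44 (-2.28, limma adjusted p = 0.0252), the antiviral GTPase Mx1 (-1.90, limma adjusted p = 0.00574), the nucleotide kinase Cmpk2 (-1.84, limma adjusted p = 0.00447) and the ubiquitin-like modifier Isg15 (-1.69, limma adjusted p = 0.0144). Ifi44 was not called with DESeq2 (adjusted p = 0.0779), and without Fat replicate 2 its log2 fold change was -1.51. Mx1 was at 41.2 and 25.9 CPM in Con and at 10.6 and 7.17 CPM in Fat.

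**Figure D5:**
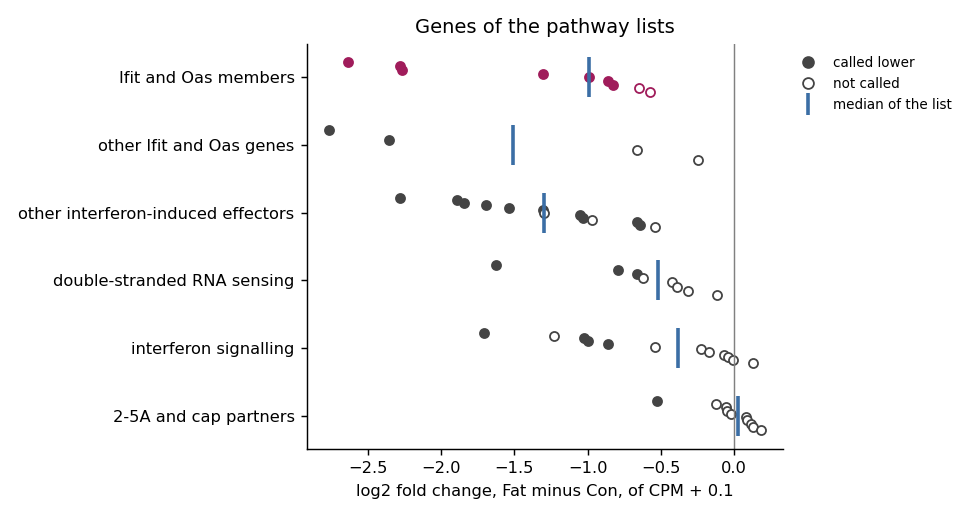
Log2 fold changes (Fat minus Con, of CPM + 0.1) of the tested genes of each list, with filled points for genes called lower, open points for those not called and blue bars for the median of the list. The median is -1.51 for the 4 relatives, -1.30 for the effectors and -0.99 for the Ifit and Oas genes, and the partners lie around 0.

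The 5 tested genes whose pattern over the 4 libraries was nearest to the mean of the 9 genes were AW112010, Rsad2, Ifi203, Mnda and Phf11d. Likeness was the Euclidean distance between centred log2(CPM + 0.1) values, among 9751 other genes that averaged 5 CPM or more. The distances were 0.07, 0.17, 0.19, 0.21 and 0.21, and among the 9 genes themselves Oas3 (0.15) was the nearest to the mean and Ifit2 (1.28) the furthest. AW112010, an interferon-induced transcript, was at 462 and 316 CPM in Con and at 189 and 115 CPM in Fat. Rsad2, the gene of the antiviral enzyme viperin, was at 110 and 82.3 CPM in Con and at 47.6 and 31.0 CPM in Fat. Ifi203 and Mnda are members of 1 family of similar genes, among which reads can be split. With 4 libraries many genes can have a like pattern, so no more is drawn from it.

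The labelled cell type was checked against its markers. All 8 macrophage markers were found, and their summed level was between 33920 and 35962 CPM in Con and between 26918 and 28504 CPM in Fat, with Mertk and Fcgr1 called lower and 5 of the 8 lower at an unadjusted limma p-value under 0.05. Most of this sum was Lyz2, at 28720.5 and 26819 CPM in Con and 21516 and 20347 CPM in Fat, which was not called (limma adjusted p = 0.209), and Cd68 and Itgam had log2 fold changes of 0.09 and 0.07 and were not called either. The 7 adipocyte markers summed to 0.147 and 0.160 CPM in Con and to 4.10 and 2.46 CPM in Fat, with Adipoq, Lep and Adrb3 at 0 reads in both Con libraries and Cidec called higher. The 4 T cell markers summed to 6.37 and 5.20 CPM in Con and to 3.72 and 2.95 CPM in Fat, with 0 called by limma (3 lower at an unadjusted p-value under 0.05, 2 lower with edgeR's exact test and 0 with its quasi-likelihood test and DESeq2). The 4 plasmacytoid dendritic cell markers summed to 1.18 and 1.013 CPM in Con and to 0.563 and 0.781 CPM in Fat. Klk1 had 1 and 1 reads in Con and 0 in Fat, all under the limit of 3 reads. Ccr9 was the only 1 of the 4 tested and was not called (log2 fold change -0.12, limma adjusted p = 0.866). Over all libraries the 6 stromal markers summed to between 512 and 656 CPM, with Dcn called lower by limma. Of these, 3 were lower at an unadjusted limma p-value under 0.05, 2 with edgeR's exact test and 0 with DESeq2. The 6 listed neutrophil markers (Ly6g was not listed) summed to between 316 and 372 CPM. Limma called 0 of them, with 3 lower at an unadjusted p-value under 0.05, 3 with edgeR's exact test and 0 with DESeq2. In these tests 0 markers of either list were higher. The 4 B cell markers summed to between 18.0 and 23.5 CPM and the 4 endothelial markers to between 0.973 and 1.18 CPM. Of all tested genes limma called 5.0% lower and 3.99% higher, and at an unadjusted p-value under 0.05 12.4% were lower and 11.8% higher. The exact test called 7.44% lower and 5.71% higher, and DESeq2 4.81% and 3.69%. The part of these cell types in the results above was not tested.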

How the data were processed

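Reads on each gene were counted by the authors, who deposited CPM values and TPM values, the latter scaled to gene length as well. In the deposited CPM each library's total was multiplied by a further factor, between 0.9903 and 1.0102. The submitters' processing notes name the genome build GRCm39. The aligner, counter and annotation are not given in the sources used here, and edgeR is named in the methods for the comparison. Libraries were made with a stranded mRNA kit. In the CPM values, 100% were whole multiples of 1 read within 0.01 reads, so reads were recovered. The 20 most abundant genes took 21.3% to 22.3% of each library.

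Fat was compared with Con with limma 3.58.1 (R 4.3.3), two-sided, using log2(CPM + 0.1), a trend of variance with mean and Benjamini-Hochberg adjustment over 12470 genes. edgeR 4.0.16 and DESeq2 1.42.0 were run on recovered reads. Other alternatives included 1 CPM as the pseudocount, leaving out the filter, a minimum average of 5 CPM, TPM, scaling by median ratios, no trend, a replicate block, each library left out and unadjusted p-values.

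The members and lists were chosen with earlier results of these data known. Named are the 9 genes, their relatives, Irf7 and Cmtr1, up to 4 called genes per list, and the 5 genes of nearest pattern. Some genes that this rule takes are not reported here. Beyond that rule, Ifnar1, Ifnar2, the ligands and the markers are named, chosen after their values were seen, as are Eif2ak2 and Adar. Older symbols were matched through RefSeq. Sequence shared between genes was found with BWA 0.7.19 in GENCODE transcripts, in stretches of 75 bases at steps of 5 bases. Start windows and their sequences are from RefSeq (GRCm38.p6), and no other coordinates are given since the builds differ.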

Additional observations from a re-analysis of the deposited data

How the results depend on the processing

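Of 126 fold changes of the 9 genes under 14 alternative fits, 0 reversed, 97 stayed on their side of the threshold, 22 lost the call and 7 gained it. The number of the 9 genes called lower was 3 with TPM and 0 without the mean-variance trend, and from 4 to 9 when each library was left out, where the lone library of a medium is assumed to vary like the other medium. Of all tested genes, 624 were called lower and 498 higher. These counts were 366 lower with TPM, 12 lower and 19 higher without the trend, 1541 lower and 1467 higher by unadjusted p-values, and from 313 to 612 lower and from 216 to 519 higher when each library was left out.

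The replicate numbers are shared by the media, but no source says that they pair the libraries. The deviations of libraries with the same number from their group means had a correlation of 0.20 over 12470 genes, and of 0.34 over the 9760 genes averaging 5 CPM or more. With the replicate number as a block, 9 of the 9 genes were called lower, and of all genes 1242 were lower and 1278 higher. In that fit 7 of the double-stranded RNA sensing genes and 8 of the signalling genes were lower.

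Without the trend, 0 genes of the relatives, the partners, the sensing and signalling lists and the effectors were called lower. The sensing list had 1 gene lower with TPM, 7 with edgeR's exact test and 7 at an unadjusted p-value, and from 1 to 7 when each library was left out. The signalling list had 2 with TPM, 2 with DESeq2, 7 at an unadjusted p-value, and from 3 to 7 when each library was left out. Among genes averaging 5 CPM or more, 0 of the relatives and 0 of the ligands were called, which that filter largely fixed. Ifit1bl1, Ifit3b, Oas1b and Il27 averaged less than 5 CPM and were not in that fit. Oas1c was in it and was not called (limma adjusted p = 0.320). Without a filter 2 ligands were lower, and from 0 to 1 when each library was left out. The cause of the other changes was not tested. Depth limits only the genes with few reads, such as Ifnb1 and Oas1f.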
